A study of Mus musculus with 6 samples.

Results

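The 32 genes described here encode the enzymes that build cholesterol and fatty acids in the mouse, together with the regulators that set their transcription. They were taken by name from 55487 gene IDs and fall into 18 genes of sterol synthesis, 10 genes of fatty acid synthesis, and 4 genes grouped as regulators and a sterol carrier (Srebf1, Srebf2, Insig1 and Stard4). RNA was sequenced from 6 grafts of B16F10, a pigmented mouse melanoma line, grown under the mucosa of the tongue in wild-type C57BL/6J mice. In the 3 inhibition grafts the host had received AAV2/retro-Trpv1-hM4D(Gi)-mCherry in its cervical lymph nodes (LN), and in the 3 control grafts the vector was AAV2/retro-Trpv1-mCherry. AAV2/retro is a virus taken up by nerve endings and carried back along the axon, the Trpv1 promoter restricts the cargo to pain-sensing neurons, and hM4D(Gi) is a designed receptor that quiets a neuron when its ligand is present. The melanoma cells followed 6 weeks after the vector, and deschloroclozapine, the ligand, was given 2 times per day for 12 days.

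The design text describes this ligand for both vectors, whereas the sample labels call the controls vehicle-treated, and which applied to the controls is unclear. The labels do not give the age of the mice, do not say that each graft came from its own animal, and describe a single tumour line, so a p-value here speaks of the spread among these 6 libraries alone, which may be technical. The vectors were given into the lymph nodes, outside the tissue that was sequenced, and these data do not show which neurons took them up. The comparison asks how the graft transcriptome differed under the labelled inhibition of pain-sensing nerves of the lymph nodes.

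Sterol and fatty acid synthesis share a supply of acetyl-CoA and a family of transcription factors. The sterol regulatory element binding proteins (SREBPs) are made as membrane proteins of the endoplasmic reticulum. When sterols are scarce the escort protein Scap carries them to the Golgi, where proteases release the part that enters the nucleus, and when sterols are plentiful the Insig proteins hold them back. Srebf2 encodes SREBP-2, which acts mainly on the cholesterol genes, and Srebf1 encodes SREBP-1, whose main targets make and desaturate fatty acids. SREBPs bind a sterol regulatory element and act together with NF-Y, which binds the CCAAT box, and with Sp1. Melanoma cells, like many tumour cells, can make fatty acids themselves, and unsaturated ones come from stearoyl-CoA desaturases.

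No member passed the test. The quasi-likelihood test of edgeR called 0 of the 32 members at an adjusted p under 0.05 (6 of 15666 genes tested passed, 0.0383%), and the values of the inhibition and control grafts overlapped in all 32. Over all genes tested the groups did not overlap in 10.2% with inhibition higher and in 11.0% with inhibition lower. Most members nevertheless had lower values in the inhibition grafts: the log2 fold change was negative in 24 of 32, beside 49.0% of all genes tested, and the median was -0.11, beside 0.00 (0.0049) over all genes tested. The sterol arm had a median of -0.13 (14 negative, 4 positive), the 4 regulators and carrier a median of -0.27 (4 negative), and the fatty acid arm a median of -0.05 (6 negative, 4 positive). The signs in the sterol and fatty acid arms rested on single libraries. Without control 1 the median of the sterol arm was 0.05 (12 positive, 6 negative), that of the fatty acid arm 0.08 (8 positive, 2 negative) and that of the regulators and carrier -0.02 (2 positive, 2 negative). Without inhibition 3 the median was -0.03 in the sterol arm (9 positive, 9 negative), 0.03 in the fatty acid arm and -0.17 in the regulators and carrier. Leaving out inhibition 1, inhibition 2, control 2 or control 3 kept all 3 medians negative, between -0.40 and -0.07.

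The libraries held 14477277, 19225621 and 20972494 counts for inhibition 1, 2 and 3, against 16472276, 15420091 and 20914180 for control 1, 2 and 3. At this depth all 32 members passed the filter on low counts. The pigment cell genes that mark the line (8 of 8 tested, none at 0) summed to between 23150 and 28010 CPM (counts relative to the scaled size of each library) in the inhibition grafts. In the control grafts they summed to between 16470 and 24260 CPM. Control 1 had the lowest sum of all 6 libraries, though not the lowest value of Tyr, Mlana or Sox10. Genes of skeletal muscle (12 of 12 tested) summed to between 2158 and 3783 CPM in the inhibition grafts, against 755 to 1757 CPM in the control grafts. Those of neutrophils (8 of 8 tested) summed to between 8.62 and 30.3 CPM in the inhibition grafts, against 36.8 to 93.2 CPM in the control grafts. These are bulk samples, in which fewer cells of a type and less RNA per cell cannot be told apart. Adipocytes and sebaceous glands make lipid from many of the same genes, and most of their markers were scarce. Cidec, Lep and Retn of the adipocyte list and Awat1 of the sebaceous list were at 0 in every library. In each list 2 of 8 genes passed the filter. Of the adipocyte list, Fabp4 stood at 33.62 to 56.08 CPM in inhibition grafts, against 30.78 to 47.67 CPM in control grafts. Lipe stood at 5.384 to 6.56 CPM, against 4.549 to 5.25 CPM, without overlap. Of the sebaceous list, Far2 stood at 3.526 to 9.891 CPM, against 2.662 to 4.425 CPM. Mogat1 lay below 1 CPM in every library. The part of both cell types in the values of the members was not tested.

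Counts were divided by exon length to order the genes by level, as TPM. Scd2, a stearoyl-CoA desaturase, was the highest member with a mean of 927 TPM over the 6 libraries. Acly, which cleaves citrate to supply acetyl-CoA in the cytosol, followed at 356 TPM, and Insig1 at 254 TPM. The lowest were Tm7sf2, a sterol reductase, at 8.53 TPM, Acss2, which makes acetyl-CoA from acetate, at 4.47 TPM, and Fdps, which makes farnesyl diphosphate, at 3.74 TPM. Exons of Fdps and Tm7sf2 overlap other genes on the same strand, over 26.7% and 12.1% of their length. How reads there were assigned is not given, so the place of both in this order is uncertain. Exons of Acss2 overlap genes on the other strand over 9.12% of their length, so its place is uncertain too. The median level was 79.7 TPM in the sterol arm, 119 TPM among the regulators and carrier, and 106 TPM in the fatty acid arm. Reads of Scd1 and Scd2 were unequal in every library: Scd1 made up 12.1%, 12.0% and 10.5% of their joint TPM in the inhibition grafts and 10.7%, 11.0% and 9.92% in the control grafts. These shares overlapped between the groups.

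**Figure D1:**
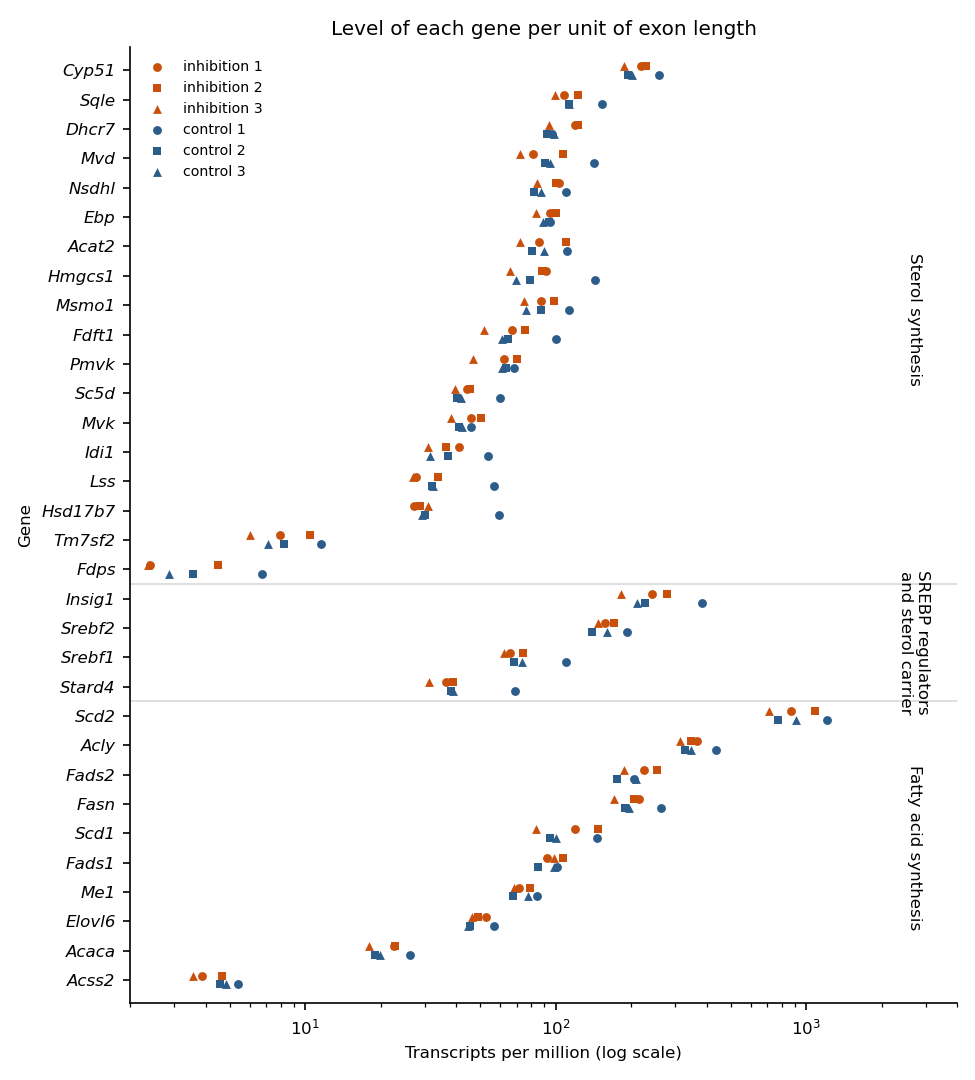
Level of each member per exon length, in TPM on a log axis, with 1 point per library (3 inhibition, 3 control). Scd2 stands at the top at a mean of 927 TPM and Fdps at the bottom at 3.74 TPM, and within each gene the points of the groups overlap. The level of Fdps is uncertain, since its exons overlap another gene on the same strand.

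The early steps of the sterol arm join acetyl-CoA units into mevalonate and then into isoprenoid units. Hmgcs1, which makes 3-hydroxy-3-methylglutaryl-CoA, stood at 128, 122 and 91.4 CPM in inhibition 1, 2 and 3, against 196, 111 and 97.5 CPM in control 1, 2 and 3. Control 1 was far above the rest, and the other 5 libraries were mixed between the groups. The log2 fold change was -0.25 (standard error 0.30, edgeR adjusted p = 0.730). Mvd, which decarboxylates mevalonate diphosphate to isopentenyl diphosphate, stood at 46.2, 60.0 and 40.3 CPM in inhibition grafts, against 79.0, 51.5 and 53.8 CPM in control grafts. Again control 1 was the highest, while inhibition 2 lay above both other controls (log2 fold change -0.33, standard error 0.21, edgeR adjusted p = 0.482). The remaining genes of this stretch had small differences: the log2 fold change was -0.07 for the thiolase Acat2, 0.06 for mevalonate kinase Mvk, -0.10 for phosphomevalonate kinase Pmvk and -0.16 for the isomerase Idi1.

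Farnesyl diphosphate, squalene and lanosterol are the next products. Fdps was the member with the most negative log2 fold change, -0.49 (standard error 0.38, edgeR adjusted p = 0.545). It was counted at 3.08, 5.69 and 3.002 CPM in inhibition grafts, against 8.45, 4.56 and 3.68 CPM in control grafts, from 44 to 140 reads per library. Control 1 was the highest and inhibition 2 the next, so the groups were interleaved. Of the exon length of Fdps, 26.7% overlaps the predicted gene Gm43738 on the same strand, which held 0 counts in every library. How reads in such overlaps were assigned is not given in the sources used here, so its level is uncertain.

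Sqle, the epoxidase that adds oxygen to squalene, stood at 183, 206 and 166 CPM in inhibition grafts, against 253, 192 and 191 CPM in control grafts. Inhibition 2 lay between control 1 and the other controls, which were level with each other (log2 fold change -0.20, standard error 0.13, edgeR adjusted p = 0.471). Lss, which closes the rings to give lanosterol, stood at 91.5, 111 and 87.5 CPM in inhibition grafts, against 182, 105 and 107 CPM in control grafts. Control 1 alone was high, the other 5 libraries lay close together, and the log2 fold change was -0.44 (standard error 0.24, edgeR adjusted p = 0.425). Fdft1, the squalene synthase, had a log2 fold change of -0.21. Of its exon length 18.3% overlaps Ctsb on the other strand, a gene with 14588 to 22160 counts per library, so its value is uncertain as well.

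The late steps trim and reduce lanosterol to cholesterol. Dhcr7, the reductase that makes cholesterol from 7-dehydrocholesterol, was the member with the smallest unadjusted p and the most positive log2 fold change. It stood at 213, 215 and 165 CPM in inhibition grafts, against 168, 163 and 174 CPM in control grafts. Inhibition 1 and 2 were above all controls, and inhibition 3 was among them. The means were 198 ± 28.1 CPM under inhibition and 168 ± 5.33 CPM in controls (SD, n = 3 each), a log2 fold change of 0.23 (standard error 0.10, edgeR adjusted p = 0.320). It was the 1 member higher at an unadjusted p under 0.05 in edgeR (0.0478), where 8.36% of all genes tested were higher, and 0 members were lower, where 7.00% were. DESeq2 called 0 members (2.28% of its genes were called higher and 1.22% lower). Before adjustment DESeq2 had 1 member higher (beside 8.07% of all genes) and 4 of 32 lower (beside 6.51%) at p under 0.05. Limma-voom called 0, and before adjustment it had 0 members at p under 0.05, beside 8.21% of all genes higher and 6.66% lower.

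Hsd17b7, a ketosteroid reductase of the C4 demethylation complex, was the sterol gene in which control 1 stood most alone among those above 10 CPM. It was counted at 42.5, 44.2 and 47.6 CPM in inhibition grafts, against 89.9, 46.9 and 45.3 CPM in control grafts. Apart from control 1 the values lay within a narrow band, and the log2 fold change of -0.44 came with a standard error of 0.28 (edgeR adjusted p = 0.493). Ebp, the isomerase that moves the double bond of the B ring, showed nothing of the kind. It stood at 66.9, 69.8 and 57.9 CPM in inhibition grafts, against 65.3, 66.0 and 62.6 CPM in control grafts, with control 1 among the others (log2 fold change 0.0040). The other late genes had log2 fold changes of -0.04 for the demethylase Cyp51, -0.13 for the reductase Tm7sf2, -0.08 for the methyl sterol oxidase Msmo1, 0.05 for the dehydrogenase Nsdhl and -0.13 for the desaturase Sc5d. Of the exon length of Tm7sf2, 12.1% overlaps Vps51, which held 374 to 581 counts per library.

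**Figure D2:**
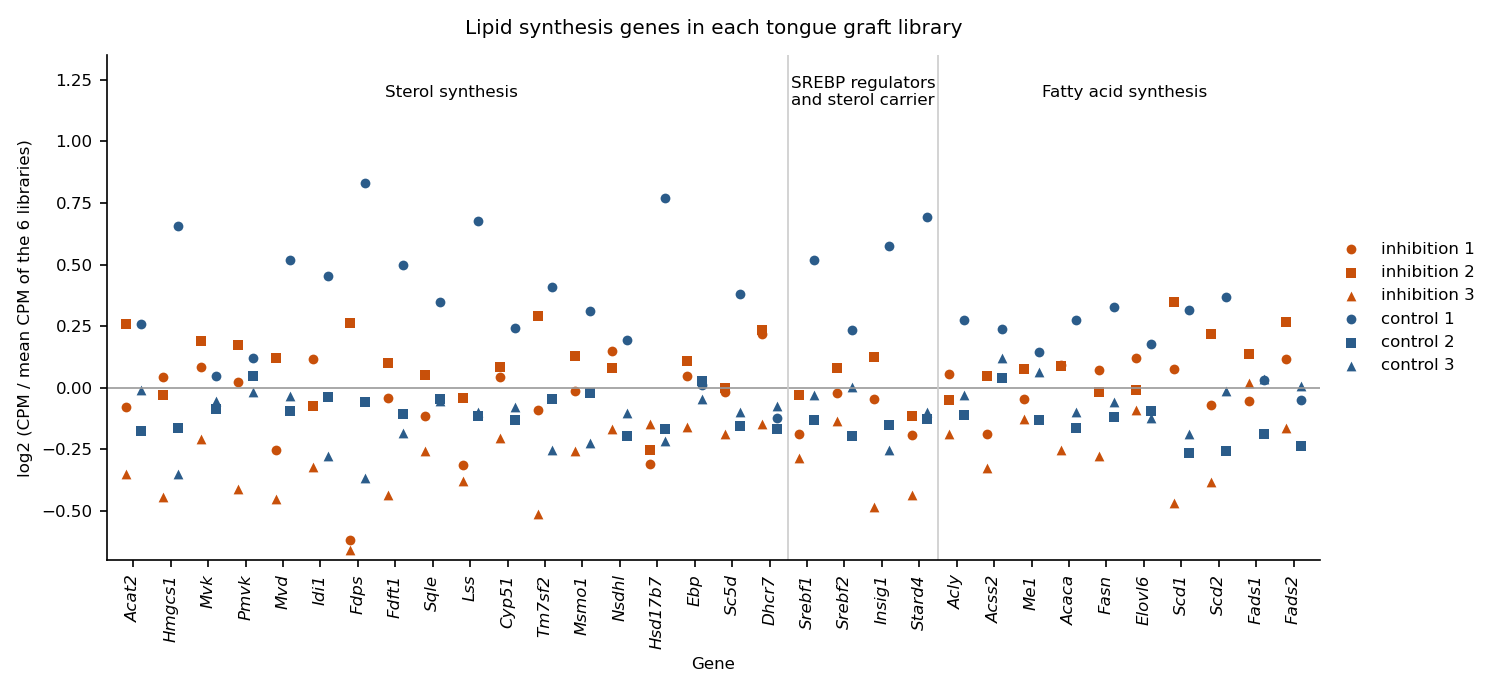
Log2 of the CPM of each member over its mean CPM of the 6 libraries, with 1 point per library, inhibition grafts left of control grafts within each gene and genes grouped by arm. Control 1 is above the mean of controls 2 and 3 in 31 of 32 members, and inhibition 3 is the lowest library in 24 of 32.

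Among the regulators, Srebf1 stood at 113, 126 and 105 CPM in inhibition grafts, against 184, 117 and 126 CPM in control grafts. Control 1 was high and the other controls lay within the range of the inhibition grafts. The means were 115 ± 10.4 CPM under inhibition and 143 ± 36.4 CPM in controls (SD, n = 3 each), a log2 fold change of -0.31 (standard error 0.17, edgeR adjusted p = 0.424). With no filter on low counts edgeR called Srebf1 lower (adjusted p = 0.0175, log2 fold change -0.32), the 1 member called under any alternative that was tried. That fit called 1187 of 28841 genes, 439 of them lower, and its standard error for Srebf1 was 0.09, against 0.17 with the filter. With the filter and each library left out in turn, the log2 fold change of Srebf1 ran from -0.45 to -0.09. Srebf2 stood at 346, 372 and 320 CPM in inhibition grafts, against 413, 307 and 352 CPM in control grafts, with the lowest and the highest value both among the controls (log2 fold change -0.05, standard error 0.11, edgeR adjusted p = 0.861). The ratio of Srebf2 to Srebf1 in TPM was 2.40, 2.32 and 2.38 in inhibition grafts and 1.76, 2.05 and 2.19 in control grafts. The ratio was above every control in all 3 inhibition grafts, and the difference was not tested. Control 1 had the lowest ratio, with Srebf1 at 110 TPM, against 68.4 and 73.3 TPM in controls 2 and 3. Of all single genes tested, 10.2% likewise had every inhibition graft above every control.

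Insig1, which retains the SREBPs in the endoplasmic reticulum and is itself an SREBP target, stood at 230, 259 and 170 CPM in inhibition grafts, against 354, 214 and 199 CPM in control grafts. Control 1 was the highest and inhibition 3 the lowest (log2 fold change -0.22, standard error 0.27, edgeR adjusted p = 0.731). Stard4, a carrier of cholesterol between membranes, stood at 62.2, 65.5 and 52.5 CPM in inhibition grafts, against 115, 64.9 and 66.3 CPM in control grafts. Leaving control 1 aside, the other 5 libraries lay between 52.5 and 66.3 CPM, and the log2 fold change was -0.45 (standard error 0.24, edgeR adjusted p = 0.423).

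The fatty acid arm begins with acetyl-CoA. Acly stood at 592, 550 and 500 CPM in inhibition grafts, against 688, 527 and 557 CPM in control grafts (log2 fold change -0.11, standard error 0.11, edgeR adjusted p = 0.651). Acss2 had the most negative log2 fold change of this arm, -0.28 (standard error 0.14, edgeR adjusted p = 0.369). It stood at 12.1, 14.2 and 10.96 CPM in inhibition grafts, against 16.2, 14.1 and 14.95 CPM in control grafts, so that inhibition 2 just exceeded the lowest control while the other inhibition grafts lay below all 3. Of the exon length of Acss2, 9.12% overlaps Ggt7, Acss2os and Gss on the other strand, so its value is uncertain. Me1, the malic enzyme that supplies NADPH, had a log2 fold change of -0.06, and Acaca, the acetyl-CoA carboxylase that makes malonyl-CoA, one of -0.03.

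Fasn, the synthase that builds palmitate, stood at 719, 676 and 564 CPM in inhibition grafts, against 859, 629 and 656 CPM in control grafts. Control 1 was the highest, and inhibition 1 and 2 lay above the other controls (log2 fold change -0.13, standard error 0.14, edgeR adjusted p = 0.673). Elovl6, which lengthens palmitate, had a log2 fold change of 0.02.

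The desaturases divide by the position of the double bond they insert. Scd1 and Scd2 make oleate and palmitoleate. Scd1 stood at 179, 217 and 123 CPM in inhibition grafts, against 212, 142 and 150 CPM in control grafts. Inhibition 2 was the highest and inhibition 3 the lowest, so the inhibition grafts spanned the controls (log2 fold change 0.04, standard error 0.25, edgeR adjusted p = 0.947). Scd2 stood at 1458, 1779 and 1174 CPM in inhibition grafts, against 1978, 1283 and 1519 CPM in control grafts, with the same order of inhibition grafts (log2 fold change -0.12, standard error 0.20, edgeR adjusted p = 0.811). The near copies Scd3 and Scd4 held 1 to 14 counts per library.

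Fads1 and Fads2 act on polyunsaturated fatty acids. Fads2 had the most positive log2 fold change of the fatty acid arm, 0.18 (standard error 0.11, edgeR adjusted p = 0.478). It stood at 227, 252 and 187 CPM in inhibition grafts, against 202, 177 and 210 CPM in control grafts, with inhibition 1 and 2 above all controls and inhibition 3 among them. Fads1, its neighbour on chromosome 19, had a log2 fold change of 0.07.

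The intervals show which sizes of change the data leave in reach. The 95% interval of the log2 fold change lay within a fold of 2 in either direction for 28 of the 32 members, and within a fold of 1.5 for 18 of them. For Fdps, Hsd17b7, Lss and Stard4 it reached past a fold of 2 lower. The lowest bound was -1.34, for Fdps, and the highest 0.66, for Scd1, so that no interval reached a fold of 2 higher. In the fatty acid arm all 10 intervals stayed within a fold of 2. Dhcr7 had the 1 interval that did not include 0, running from 0.00 (0.0029) to 0.46.

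**Figure D3:**
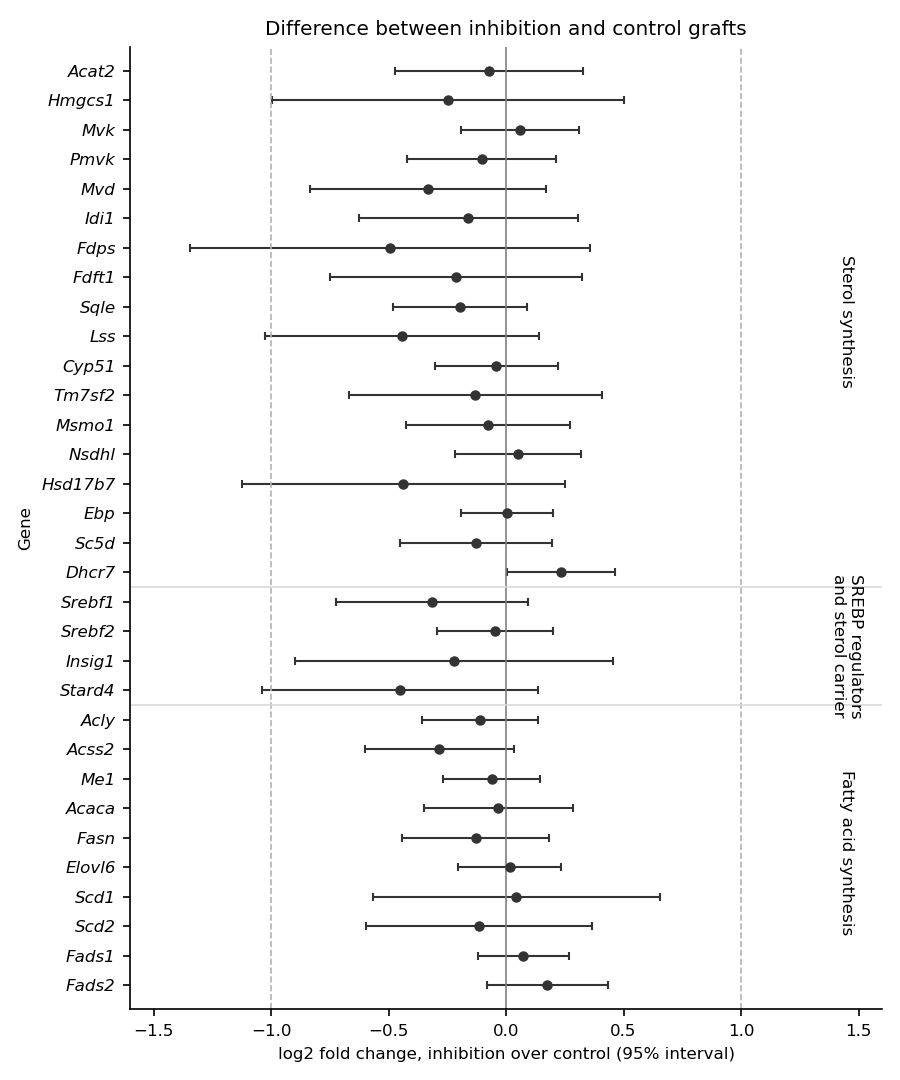
Log2 fold change of each member, inhibition over control, with its 95% interval from the edgeR fit (n = 3 each), grouped by arm. Of the 32 points 24 lie below 0, and the intervals of all members but Dhcr7 include 0.

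Control 1 stood apart from the other controls in these genes. It was the highest of the 6 libraries in 25 of 32 members (14 of 18 sterol genes, 4 of 4 regulators and carrier, 7 of 10 fatty acid genes), where it was the highest in 26.1% of all genes tested, and inhibition 2 was the highest in the other 7. Control 1 was the lowest library in 0 members and in 27% of all genes tested, so it was often an extreme library outside these genes as well. Inhibition 3 was the lowest in 24 of 32 members, beside 12.3% of all genes tested. Control 1 exceeded the mean of controls 2 and 3 by a median ratio of 1.38 in the sterol arm, 1.62 in the regulators and carrier and 1.25 in the fatty acid arm. The largest ratios were those of Fdps (2.05), Hsd17b7 (1.95), Hmgcs1 (1.88), Stard4 (1.75), Insig1 (1.72) and Lss (1.72), which come from several points of the sterol path and its control. The smallest were those of Dhcr7 (0.997), Ebp (1.02), Fads2 (1.04), Fads1 (1.07), Pmvk (1.07) and Mvk (1.08). In the sterol arm the range within each group was wider than the difference between the group means: the mean log2 level of the sterol arm, relative to the control mean, was -0.11, 0.05 and -0.36 in inhibition grafts and 0.32, -0.14 and -0.18 in control grafts.

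Other gene lists differed in the same libraries. Control 1, which was the highest in sterol genes, had the lowest summed level of pigment cell genes (16470 CPM), of muscle genes (755 CPM) and of fibroblast genes (686 CPM, against 1024 to 1035 CPM in the other controls and 1255 to 1658 CPM in inhibition grafts), and the highest of neutrophil genes (93.2 CPM). Among pigment cell genes control 1 was the lowest in Pmel, Tyrp1, Dct, Mitf and Slc45a2. It was not the lowest in Tyr (1029 CPM, against 904 CPM in inhibition 3) or Sox10 (577 CPM, against 543 CPM in inhibition 2). Nor was it the lowest in Mlana (624 CPM, against 622 CPM in control 2). Inhibition 3, which was the lowest in sterol genes, had the lowest muscle level (2158 CPM) and the highest neutrophil level (30.3 CPM) of its group. Hypoxia response genes (12 of 12 tested, 11 negative) summed to between 4350 and 5549 CPM in inhibition grafts and between 6479 and 7287 CPM in control grafts, without overlap, and squamous epithelium genes to between 1615 and 4938 CPM in inhibition grafts and between 1269 and 2790 CPM in control grafts. The hypoxia list held 0 edgeR calls and 8 genes lower at an unadjusted edgeR p under 0.05 (66.7%, beside 7.00% of all genes tested). In 8 of the 12 the groups did not overlap, with inhibition lower (66.7%, beside 11.0%). DESeq2 called 7 genes of the list lower, beside 1.22% of all its genes. Other marker lists had such counts too. At that edgeR p 7 of 8 fibroblast and 8 of 12 muscle genes were higher (beside 8.36% of all genes tested), and 5 of 8 neutrophil genes lower. The groups did not overlap in 7 of 8 fibroblast and 7 of 12 muscle genes (beside 10.2% higher) and 7 of 8 neutrophil genes (beside 11.0% lower). DESeq2 called 6 fibroblast and 6 muscle genes higher (beside 2.28%) and 3 neutrophil genes lower. Mitochondrial genes took 4.55%, 4.09% and 4.79% of counts in inhibition grafts, against 3.38%, 3.92% and 3.50% in control grafts, with control 1 the lowest and no overlap. Proliferation genes summed to between 2656 and 3031 CPM in inhibition grafts and between 2579 and 2891 CPM in control grafts. The part of these lists and of the mitochondrial share in the values of the members was not tested. With muscle added to the fit, the log2 fold change took the opposite sign in 16 of 32 members. The medians were then -0.04 in the sterol arm, 0.09 in the fatty acid arm and 0.04 in the regulators and carrier. Muscle level did not overlap between the groups, so this fit cannot separate muscle from group. Its standard errors were larger in every member, such as 0.65 against 0.30 for Hmgcs1 and 0.43 against 0.24 for Lss. The changes of sign therefore do not show what part muscle had in these values.

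**Figure D4:**
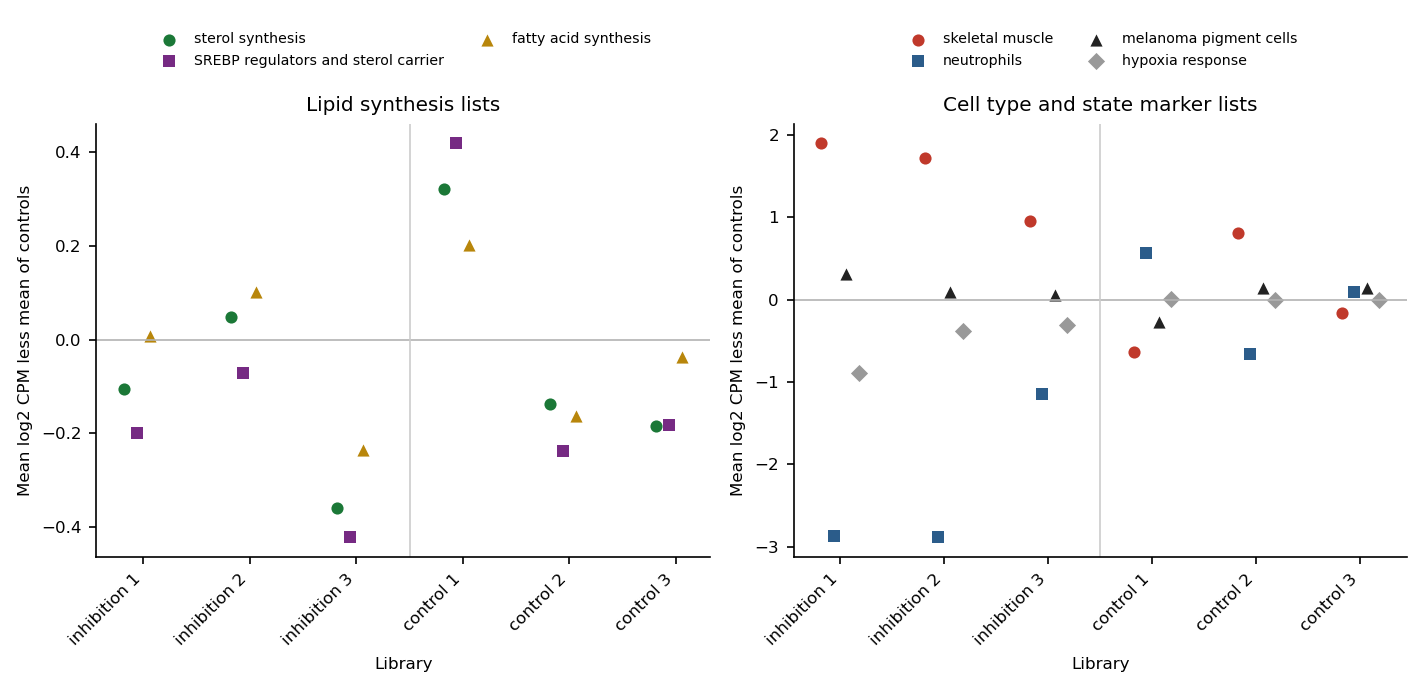
Mean log2 CPM of the tested genes of each list in each library, less the mean of the controls, with 1 point per library and inhibition grafts left of control grafts. Control 1 is the highest point of the sterol arm (0.32) and of neutrophil genes (0.57) and the lowest of pigment cell genes (-0.27) and muscle genes (-0.64).

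Promoter sequences were examined because the members share regulators, and most were highest in the same library. RefSeq sequence for GRCm38.p6 gave the 250 bases before the start for 25 of the 32 members, in 31 promoters, since some genes have more than 1 start. A gene was counted where any of its promoters held the motif. The NF-Y box CCAAT was present on either strand in 20 of 25 (80.0%), beside 40.0% of 11122 tested genes with a promoter in the table and 37.5% of all 27025 genes in it. It was found in 14 of 15 sterol genes, 3 of 3 regulators and 3 of 7 fatty acid genes. The Sp1 box GGGCGG was in 21 of 25 members (84.0%), beside 61.4% of tested genes and 35.4% of all genes in the table. The core TCACNCCAC of the sterol regulatory element was in 1 of 25 members, Hmgcs1 (4.0%), beside 1.28% of tested genes and 1.22% of all. The matches of the 3 motifs overlapped each other in 0 of the 31 promoters. A match describes the sequence only. Only these exact letters were searched, so sites that differ from them or lie outside the 250 bases were not counted.

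Below are 5 of these promoters, 5′ to 3′ on the strand of the gene, with bases inside the GENCODE gene left out. Capitals mark each CCAAT box, which reads ATTGG where it lies on the other strand, and in Hmgcs1 also the sterol regulatory element core. Hmgcs1 (chr13:119690101-119690350, plus strand), Hsd17b7 (chr1:169969242-169969455, minus strand) and Insig1 (chr5:28071162-28071362, plus strand) are shown as genes in which control 1 stood far above the other controls, Fasn (chr11:120824548-120824797, minus strand) as the central gene of the fatty acid arm, and Ebp (chrX:8193513-8193762, minus strand) as a sterol gene with almost level values. Coordinates are GRCm38.
Hmgcs1: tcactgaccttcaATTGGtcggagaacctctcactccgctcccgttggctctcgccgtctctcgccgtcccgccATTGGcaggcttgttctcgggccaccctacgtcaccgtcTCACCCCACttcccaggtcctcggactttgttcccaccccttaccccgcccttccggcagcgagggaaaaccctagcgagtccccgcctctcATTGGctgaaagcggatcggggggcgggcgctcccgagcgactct
Hsd17b7: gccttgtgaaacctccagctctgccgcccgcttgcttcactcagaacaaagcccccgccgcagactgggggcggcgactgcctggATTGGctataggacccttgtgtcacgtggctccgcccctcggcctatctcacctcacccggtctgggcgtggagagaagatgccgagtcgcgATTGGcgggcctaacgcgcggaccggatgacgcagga
Insig1: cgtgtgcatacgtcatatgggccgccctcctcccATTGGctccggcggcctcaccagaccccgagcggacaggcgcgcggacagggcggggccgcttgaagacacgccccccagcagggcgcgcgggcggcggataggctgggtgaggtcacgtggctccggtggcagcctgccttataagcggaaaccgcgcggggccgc
Fasn: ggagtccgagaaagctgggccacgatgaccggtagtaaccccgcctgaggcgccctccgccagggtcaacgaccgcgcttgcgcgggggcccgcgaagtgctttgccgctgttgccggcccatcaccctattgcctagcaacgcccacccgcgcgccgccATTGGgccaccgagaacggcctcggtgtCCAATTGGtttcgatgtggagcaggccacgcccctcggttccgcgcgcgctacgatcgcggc
Ebp: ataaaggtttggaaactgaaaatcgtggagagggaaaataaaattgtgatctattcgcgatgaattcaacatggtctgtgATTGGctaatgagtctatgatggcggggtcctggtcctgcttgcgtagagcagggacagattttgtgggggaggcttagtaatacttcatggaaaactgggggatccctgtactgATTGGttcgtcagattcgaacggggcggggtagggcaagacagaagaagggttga

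The printed stretches held 3 CCAAT boxes in Hmgcs1, 2 in Hsd17b7, 1 in Insig1, 3 in Fasn and 2 in Ebp, and 2 of the 3 in Fasn, 1 on each strand, share letters. The box was present in printed genes that were high in control 1 and also in Ebp, which was not. The printed genes were chosen with their values known, and any relation of the box to those values was not tested. Hmgcs1 alone of the 25 also carried an exact match to the sterol regulatory element core.

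Genes around the pathway that are not members were counted from lists of textbook membership. Of 9 other mevalonate and sterol enzymes 7 were negative (median log2 fold change -0.06), and edgeR called 0. At an unadjusted p under 0.05 there was 1 higher (11.1%, beside 8.36% of all genes tested) and 0 lower (beside 7.00%). The 2 with the smallest p were Cyp27a1, a sterol hydroxylase (log2 fold change 1.11, edgeR adjusted p = 0.295), and Ch25h, which makes 25-hydroxycholesterol (0.97, adjusted p = 0.363). Both make oxysterols, and both are expressed by macrophages, whose 8 tested markers summed to between 228 and 267 CPM in inhibition grafts and between 156 and 260 CPM in control grafts; the part of macrophages in these values was not tested. Of 10 genes of SREBP processing and sterol uptake 5 were negative (median -0.02), with 0 called. At an unadjusted p under 0.05, 1 was higher (10%, beside 8.36% of all genes tested). The lipoprotein receptors Lrp1 and Scarb1 had the smallest p, with log2 fold changes of 0.26 and -0.36 (edgeR adjusted p = 0.212 and 0.409). Scarb1, the receptor for high density lipoprotein, had the pattern of the sterol genes: 107, 133 and 126 CPM in inhibition grafts, against 204, 127 and 138 CPM in control grafts, with control 1 alone high. With no filter on low counts edgeR called Scarb1 lower (log2 fold change -0.36, adjusted p = 0.0090), in a fit that called 1187 of 28841 genes. With muscle added to the fit the log2 fold change of Scarb1 was 0.18 (standard error 0.23).

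Of 9 genes of liver X receptors and sterol efflux 6 were positive (median 0.10), with 0 called. At an unadjusted p under 0.05, 1 was higher (11.1%, beside 8.36% of all genes tested). In 3 of the 9 the groups did not overlap, with inhibition higher (33.3%, beside 10.2% of all genes tested). Abcg1, an exporter of cholesterol, was not the gene below that p: its log2 fold change was 0.52 (unadjusted p = 0.0599, edgeR adjusted p = 0.344). Of 22 further genes of fatty acid and glycerolipid synthesis 13 were positive (median 0.07), with 0 called by edgeR. Before adjustment 2 were higher (9.09%, beside 8.36% of all genes tested) and 2 lower (9.09%, beside 7.00%) at p under 0.05. Mlxipl, which encodes the glucose-responsive factor ChREBP, stood at 3.01, 3.997 and 0.762 CPM in inhibition grafts, against 0.241, 0.976 and 0.484 CPM in control grafts. Inhibition 1 and 2 were high and inhibition 3 lay among the controls. Its log2 fold change was 2.19 (standard error 0.69, edgeR adjusted p = 0.225), and DESeq2 called it higher (adjusted p = 0.0441), the 1 call of DESeq2 among the pathway lists. In edgeR it was called higher with no filter (adjusted p = 4.13e-05) and without inhibition 3 (log2 fold change 2.63, adjusted p = 0.0379). Those fits called 1187 of 28841 and 217 of 15890 genes. Mlxipl did not pass the stricter filter (1 CPM). It was counted at 43, 78 and 16 reads in inhibition grafts and 4, 15 and 10 reads in control grafts. With muscle added to the fit the log2 fold change of Mlxipl was -0.40 (standard error 0.76). Squamous epithelium genes (10 of 10 tested) summed to 3918, 4938 and 1615 CPM in inhibition grafts, against 1370, 2790 and 1269 CPM in control grafts, also with inhibition 1 and 2 high, and their part in the value of Mlxipl was not tested. Dgat1, which completes triglyceride synthesis, had a log2 fold change of -0.24 (edgeR adjusted p = 0.266).

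Fatty acid oxidation runs against synthesis, and of 12 tested genes 9 were negative (median -0.19), with 0 called. At an unadjusted edgeR p under 0.05, 4 of the 12 were lower (33.3%, beside 7.00% of all genes tested), and in 3 of the 12 the groups did not overlap, with inhibition lower (25%, beside 11.0%). Slc25a20, the carnitine carrier of mitochondria, had a log2 fold change of -0.30 (edgeR adjusted p = 0.234). Limma-voom called 0 genes in every pathway list, and DESeq2 called 0 in all but the list that holds Mlxipl.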

How the data were processed

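RNA of 6 grafts was analysed, 3 labelled as inhibition of LN-innervating nociceptive nerves and 3 as controls. Raw counts per Ensembl gene were deposited, with a column for each library, and the column names of the inhibition group speak of denervation where the sample titles speak of inhibition. The build mm10 and the aligner HISAT2 2.0 are named per the submitters' processing notes, and the counting program, annotation release and strand setting are not given in the sources used here, so genes that overlap or have near copies are uncertain. Of 55487 IDs 346 (0.0575% of counts) matched no symbol, and 0 columns of per-sample values were left unused.

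The fit ran over all genes with edgeR 4.0.16 in R 4.3.3: filterByExpr by group (count minimum 10, total minimum 15; 15666 genes kept), TMM factors, robust quasi-likelihood test, Benjamini-Hochberg adjustment over all genes tested, and a call at an adjusted p under 0.05. It was also tested on simulated data. CPM values use TMM factors. TPM values use union exon lengths of GENCODE M21 on GRCm38. The standard error is the absolute log2 fold change over the square root of F. No covariate entered, because the labels name no batch.

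Same-numbered libraries of the groups had deviations correlated at -0.18, 0.327 and 0.087, so the numbers were not taken to pair the samples. No library repeated another: pairs differed by a chi-square of at least 7.65 per degree of freedom.

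All members are named. Values in every library are given for the 4 members of smallest p in the sterol and fatty acid arms, the highest and lowest of each arm, the 4 regulators and carrier, Scd1, Scd2, Hmgcs1 and Sqle, and, outside this rule and chosen after their values were seen, Hsd17b7, Ebp, Scarb1 and Mlxipl. Of each further pathway list the 2 genes of smallest p are named, except for 2 genes that are not reported here, and of marker lists only levels are given. Members, lists and tests were chosen with earlier results of these data known. Tried as alternatives were upper-quartile and RLE factors, no filter, a stricter filter (1 CPM), limma-voom (limma 3.58.1), DESeq2 1.42.0, a replicate block, a muscle covariate, marker genes left out, an adjusted p under 0.1, and each library left out in turn.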

Additional observations from a re-analysis of the deposited data

How the results depend on the processing

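The number of members called was 0 under every alternative but no filter on low counts, where it was 1 (Srebf1, lower). The number of genes called over the whole table was 6, and it was 1187 with no filter, 0 with limma-voom (before adjustment 1286 higher and 1043 lower at p under 0.05), 527 with DESeq2, 14 with the replicate block, 0 with the muscle covariate (188 and 313 by the same count) and 33 at an adjusted p under 0.1. Leaving out 1 library at a time gave between 0 and 217 genes. It was 0 without inhibition 1, inhibition 2 or control 3 (before adjustment 770, 772 and 1094 higher and 655, 933 and 1094 lower), 11 without control 1, 24 without control 2 and 217 without inhibition 3. Replicate numbers were not taken to pair the samples, and under the block 0 members were called.

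The median log2 fold change ranged over the left-out libraries between -0.25 and 0.05 in the sterol arm, between -0.14 and 0.08 in the fatty acid arm and between -0.40 and -0.02 in the regulators and carrier, where it was 0.0424 with the muscle covariate. Ebp, near 0, was -0.0058 with no filter, -0.0015 with limma-voom, -0.0002 with the replicate block and -0.0039 with marker genes left out. With the muscle covariate, which moves with the group, the log2 fold change took the opposite sign in Ebp (-0.15), Acat2 (0.0228), Hmgcs1 (0.0837), Mvk (-0.0376), Lss (0.028), Cyp51 (0.0713), Hsd17b7 (0.29), Sc5d (0.14), Srebf1 (0.0598), Srebf2 (0.18), Insig1 (0.025), Acly (0.0381), Me1 (0.0755), Acaca (0.0815), Fasn (0.0032), Scd2 (0.13), and in Cyp27a1 (-0.25), Ch25h (-0.21), Scarb1 (0.18), Abcg1 (-0.0185) and Mlxipl (-0.40).

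Signs also turned when 1 library was left out, over ranges of -0.0433 to 0.16 for Nsdhl, -0.0621 to 0.0685 for Ebp, -0.0506 to 0.11 for Elovl6, -0.0378 to 0.15 for Mvk, -0.16 to 0.24 for Scd1, -0.26 to 0.0514 for Acat2, -0.24 to 0.0388 for Pmvk, -0.13 to 0.0763 for Cyp51, -0.36 to 0.0708 for Tm7sf2, -0.20 to 0.0726 for Msmo1, -0.13 to 0.11 for Acaca, -0.29 to 0.0611 for Scd2, -0.44 to 0.12 for Hmgcs1, -0.32 to 0.0618 for Idi1, -0.35 to 0.0276 for Fdft1, -0.24 to 0.051 for Sc5d, -0.16 to 0.0615 for Srebf2, -0.38 to 0.0783 for Insig1, -0.20 to 0.0042 for Acly, -0.23 to 0.0148 for Fasn and -0.0122 to 0.11 for Fads1. Without control 1 the sign turned in 14 of 32 members and without inhibition 3 in 7. The cause was not tested. Depth left no member out, since all 32 passed the count filter.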
